A study of Dendrobium huoshanense with 6 samples.

Results

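The very long contigs of a transcript assembly of Dendrobium huoshanense, a medicinal orchid, were described in seedlings grown normally and seedlings exposed to cold. They were chosen by length alone, as all contigs with a listed length of at least 8000 bases, whatever their counts, and there were 429 of them among 181669 contigs (0.236%), holding 1.90% of all assembled bases. RNA came from whole seedlings, and 3 libraries labelled as normal growth were compared with 3 labelled as cold. No strain, genotype or allele is given, all libraries were made from annual plants, and how many seedlings each library held is not stated. A single protocol text stands for all 6 libraries: it names 4 °C, a light period of 11 h per day and collection at 0 and 7 days, and it calls the exposure both cold and freezing stress. The labels do not tie a day to a group, so time and plant age may differ between the groups together with the exposure, and these cannot be told apart.

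Few plant messenger RNAs are this long, and those that are often encode giant proteins of basic cell machinery. In Arabidopsis they include midasin (MDN1), an ATPase that remodels large ribosomal subunit precursors, BIG, a huge protein needed for normal auxin transport, and the very large HECT ubiquitin ligases UPL1 and UPL2, which tag proteins for breakdown. Others are TRRAP and ATM, giant relatives of phosphatidylinositol kinases that act in transcription and DNA repair, and SPIRRIG, a BEACH-domain protein of membrane traffic and RNA granules. In an assembly, such a contig may also be an allele, a splice form with retained introns or a join of neighbouring sequences. The tables give contigs an ID and no gene or product name, and contig sequences were not used here, so none of the contigs below can be assigned to any of these genes, no gene list could be counted and no marker of tissue could be checked.

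Total depth was 17683567 to 18085164 estimated reads in normal growth and 15284397 to 17255112 in cold. Libraries within a group were not alike: Pearson's r of log2(TPM + 0.1) over the very long contigs was 0.87 to 0.91 among normal growth libraries, 0.77 to 0.86 among cold libraries and 0.62 to 0.76 between the groups. Over all contigs r was lower, at 0.77 to 0.82, 0.64 to 0.73 and 0.50 to 0.67 in the same order. The r values of the very long contigs are descriptions over the 429 contigs, many of which share reads. Replicates numbered 3 in both groups lay nearest to the other group in several measures below, so values are given for each library. In RNA of whole seedlings, fewer cells of a type and less RNA per cell cannot be told apart.

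The set had a median length of 9187 bases, with quartiles of 8515 and 10351. There were 140 contigs of at least 10000 bases, 55 of at least 12000, 11 of at least 15000 and 3 of at least 20000, the longest with 29132. The assembly's IDs group related contigs by a shared prefix, CL and a number, read here as a cluster. By this reading 305 of the 429 (71.1%) belonged to 124 clusters and 124 stood alone, whereas 43.5% of all contigs had such a prefix. The members were unevenly spread: 76 clusters held 1 very long contig, 16 clusters held at least 5, and the 4 richest held 83 together. Contigs of 1 cluster can share reads, so the 429 contigs are at most 248 separate units, counting each cluster or unclustered contig as 1.

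Per length, very long contigs were mostly low. Their median over contigs of the mean TPM (a level corrected for contig length, scaled to a fixed sum per library) was 1.87, and that of all contigs was 0.767. Among the contigs that passed the filter on low counts the medians were 2.67 and 2.94. In TPM, 4 of the 429 had a mean of at least 100, 29 of at least 10, 256 from 1 to 10 and 109 below 1 but not 0. No read at all was assigned in any library to 34 of them (7.93%, against 5.97% of all contigs), and this share was 14.3% among those of at least 10000 bases (20 of 140). At least 1 read in all 6 libraries was found for 288.

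**Figure D1:**
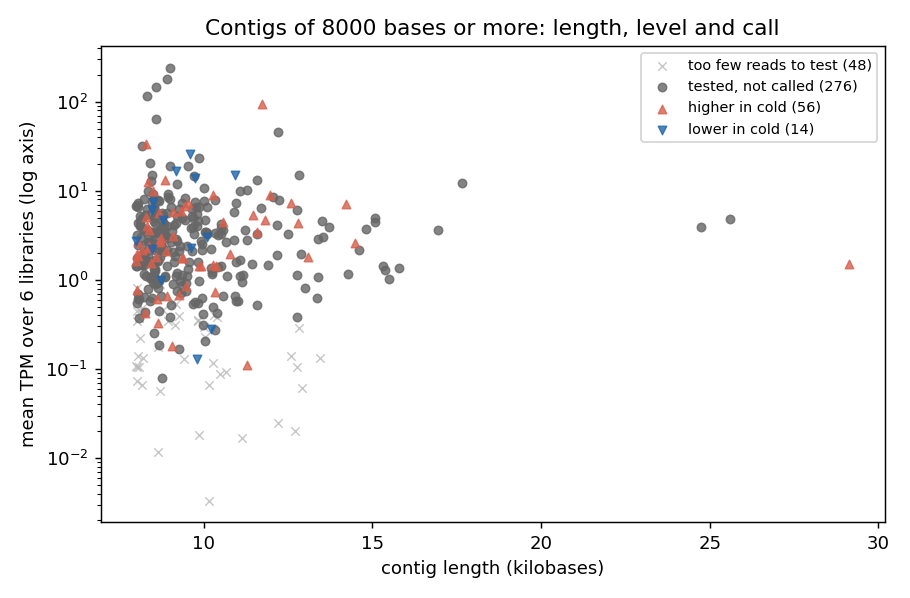
Mean TPM over the 6 libraries (vertical, log scale) against contig length in kilobases (horizontal, linear scale) for very long contigs, coloured by whether they were not tested, tested and not called, higher in cold or lower in cold at an adjusted p under 0.05; contigs with a mean TPM of 0 are not drawn. The 56 contigs higher in cold have at most 14493 bases, apart from the 29132-base contig. The 3 contigs with the highest levels were not called.

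The 3 most abundant very long contigs per length did not pass the test, and their replicates differed widely. CL15810.Contig9_All, of 9007 bases, had TPM levels of 280, 362 and 166 in normal growth and 193, 36.4 and 413 in cold (log2 fold change −0.42 ± 0.79 SE, edgeR adjusted p = 0.739). CL15810.Contig11_All, of 8926 bases, had 194, 131 and 311 TPM in normal growth and 156, 137 and 154 in cold (−0.61 ± 0.31, edgeR adjusted p = 0.217). In both, the groups overlapped, and the second cold library was low for the former. These contigs belong to a cluster of 15 contigs, of which 9 were very long, and that cluster took 54114, 55648 and 53510 estimated reads in normal growth and 36019, 19624 and 62548 in cold. Unigene6408_All, of 8579 bases and in no cluster, came next, with 199, 77.7 and 183 TPM in normal growth and 139, 49.1 and 224 in cold (−0.24 ± 0.59, edgeR adjusted p = 0.805).

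The longest contig also belonged to this cluster and rose in cold. Its 29132 bases collected 254, 132 and 187 reads in normal growth and 715, 932 and 637 in cold. Per length this was a low level, with TPM of 0.73, 0.38 and 0.55 against 2.46, 2.97 and 1.88, and the groups did not overlap. The difference passed the test (log2 fold change 2.02 ± 0.37 SE, edgeR adjusted p = 0.021), but not when any 1 library was left out (adjusted p from 0.054 to 0.074). CL4768.Contig5_All, of 25589 bases, had 4.65, 4.74 and 8.76 TPM in normal growth and 3.67, 4.45 and 2.47 in cold (−0.88 ± 0.34, edgeR adjusted p = 0.123). Every cold value of this contig lay under every normal growth value. CL15810.Contig6_All, of 24742 bases, had 2.68, 1.33 and 2.08 TPM in normal growth and 10.1, 0.64 and 6.44 in cold (1.39 ± 0.86, edgeR adjusted p = 0.301), with the second cold library lowest of all 6. Of the 11 contigs of at least 15000 bases, the longest was the only one that passed.

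As a set, very long contigs took a small share of all reads. In normal growth it was 1.21%, 1.10% and 1.46% of each library's estimated reads, and in cold 1.66%, 1.57% and 1.33%. The group means were 1.26% ± 0.185 and 1.52% ± 0.173 (SD, n = 3 each). The third cold library lay under the third normal growth library, so the groups overlapped. The share of summed TPM ran the same way, at 0.191%, 0.178% and 0.238% against 0.265%, 0.254% and 0.209%, with means of 0.203% ± 0.0314 and 0.243% ± 0.0292 (SD, n = 3 each). No p-value is given for these sums.

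A few abundant contigs held a large part of these reads. The 10 contigs of highest mean TPM alone took 0.628%, 0.536% and 0.662% of reads in normal growth and 0.581%, 0.400% and 0.722% in cold. The other 419 took 0.583%, 0.562% and 0.798% in normal growth and 1.08%, 1.17% and 0.605% in cold. Thus the first and second cold libraries were above all normal growth libraries for the less abundant contigs, and the third cold library lay among them.

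**Figure D2:**
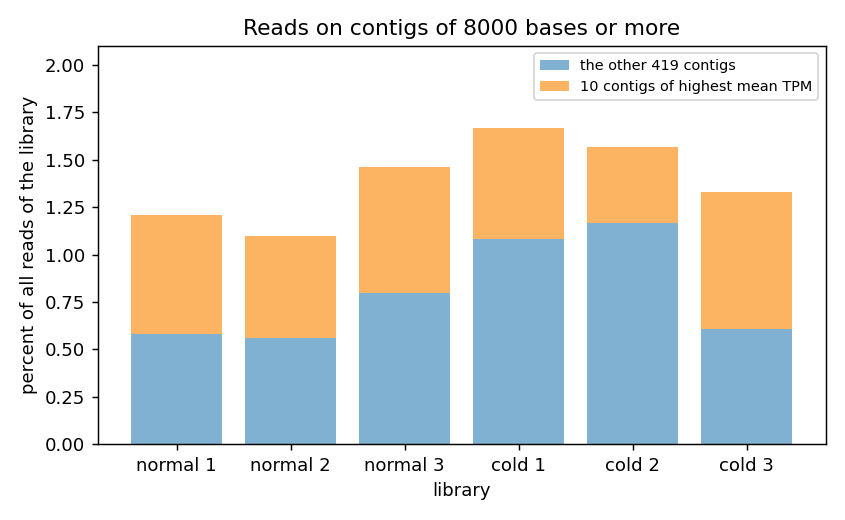
Percent of each library's estimated reads assigned to very long contigs (vertical) in the 6 libraries (horizontal), divided into the 10 contigs of highest mean TPM and the other 419. The 419 take over 1% of reads in the first and second cold libraries and 0.605% in the third, which lies within the normal growth range of 0.562% to 0.798%.

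More of the very long contigs were detected in cold. At least 1 estimated read was found for 334, 324 and 334 of the 429 in normal growth and for 347, 362 and 353 in cold (331 ± 5.77 and 354 ± 7.55, SD, n = 3 each), without overlap, although the cold libraries were shallower. Thinning all libraries to 15284111 reads left these counts at 334, 324 and 334 against 347, 362 and 354. All contigs together moved the same way, from 55.0% to 61.1% detected in normal growth and from 64.8% to 71.5% in cold, while the very long contigs went from 75.5% to 77.9% and from 80.9% to 84.4%. Reads in at least 1 cold library and in no normal growth library were found for 43 very long contigs, and the reverse for 11. The shares over all contigs are not given for this count, so it does not set very long contigs apart from others. In a stricter count, 7 (1.63%) had at least 10 reads in each cold library and none, after rounding, in normal growth, and 2 (0.466%) were the reverse. Among all contigs these shares were 0.806% and 0.171%, with reads rounded before the minimum of 10 was applied. Depth differs too: 80.7% of the 429 passed a filter on low counts, against 38.9% of all contigs. Whether the shares differ at like depth was not tested. Of these 9 very long contigs, 7 belonged to clusters, where reads may be divided among near-identical contigs.

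Contigs were tested one by one for a difference between cold and normal growth, and very long contigs that passed were mostly higher in cold. The test was edgeR's quasi-likelihood F test over all contigs, with a Benjamini-Hochberg adjusted p under 0.05 taken as a call. The filter on low counts kept 346 of the 429 (80.7%, against 38.9% of all contigs, since long contigs collect more reads at the same level). A contig expressed in 1 group alone can pass the filter through that group, so the 346 do not stand for all 429. Of the 346, 70 were called (20.2%, against 16.3% of all contigs tested, with shares at like depth given below). There were 56 higher in cold (16.2%, against 9.74%) and 14 lower (4.05%, against 6.53%). The 70 calls lay in 64 units. Calls rest on all 6 libraries: leaving out any 1 of them left 0 to 28, where 0.176% to 4.14% of all contigs tested were called, and DESeq2 called 125 (34.0%, against 23.3% of all contigs). The groups did not overlap in CPM, reads scaled to library size, for 157 of the 346 (45.4%, against 44.9%), which is near the share over all contigs. Of the 157, 112 were higher and 45 lower. Shares by direction over all contigs are not given, so this split does not set very long contigs apart.

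The 56 contigs that rose had a median log2 fold change of 2.67, and the smallest was 1.52. Of these, 48 rose at least 4-fold and 19 at least 16-fold by the fitted value, and 8 had no read, after rounding, in any normal growth library. Together they took 0.0624%, 0.0645% and 0.0811% of reads in normal growth and 0.387%, 0.431% and 0.244% in cold. The third cold library was the lowest cold library for 45 of the 56. The third normal growth library was the highest of its group, ties included, for 43, against 17 for the first and 12 for the second. Each of these counts includes the 8 without normal growth reads, where all libraries of that group tie. The 14 that fell had a median log2 fold change of −2.45, with 9 falling at least 4-fold, and went from 0.0893%, 0.0896% and 0.101% of reads to 0.0362%, 0.0283% and 0.0348%. The third cold library lay between the other two there. Since calls chose these contigs, their sums are descriptions.

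**Figure D3:**
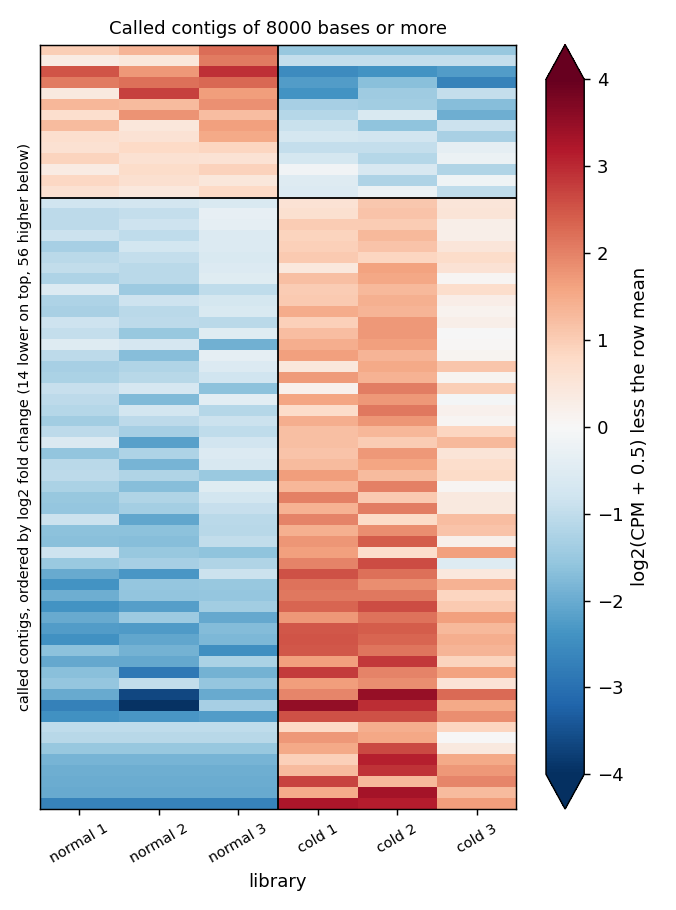
Log2(CPM + 0.5) of the 70 called very long contigs (rows, ordered by fold change, the 14 that fell on top) in the 6 libraries (columns), each row as the deviation from its own mean over the libraries, red above it and blue below. The 56 rows that rose are lower in all 3 normal growth libraries, and most are less high in the third cold library than in the other two; the 14 rows that fell show the reverse contrast.

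The largest rise was that of Unigene43272_All, of 8171 bases and in no cluster. It had 0.05, 0 and 0 estimated reads in normal growth and 463, 474 and 166 in cold. All cold libraries were far above the normal growth libraries, and the third was the lowest of the 3. Against a floor of 3 reads for the whole normal growth group, the cold mean of 22.3 ± 11.0 CPM (SD, n = 3) was at least 384-fold higher (edgeR adjusted p = 0.014; 0.038 to 0.064 with 1 library left out). The next was CL1241.Contig4_All, of 10351 bases, with no read in normal growth and 81.3, 335 and 75.3 reads in cold. Its cold mean was 9.76 ± 8.68 CPM, at least 168-fold higher than that floor (edgeR adjusted p = 0.021; 0.047 to 0.070 with 1 library left out). The cluster it belongs to did not rise with it, as described below.

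Where the mean was 2 CPM or more, the largest called fall was that of CL15192.Contig15_All, of 8006 bases, which had 511, 292 and 691 reads in normal growth and 6.92, 8.95 and 11.3 in cold. Its level fell from 29.3 ± 11.5 CPM to 0.538 ± 0.0980 (mean ± SD of 3 libraries each). This was −5.75 ± 0.54 SE on the log2 scale (edgeR adjusted p = 0.0085; 0.029 to 0.052 with 1 library left out). Its whole cluster of 25 contigs fell less, by 1.33 ± 0.17 on the log2 scale (edgeR adjusted p = 0.0031). Unigene39658_All, of 9612 bases and in no cluster, had 456, 501 and 538 reads in normal growth and 14.0, 26.5 and 9.18 in cold. It fell from 29.4 ± 2.02 to 0.982 ± 0.512 CPM, a log2 fold change of −4.89 ± 0.54 (edgeR adjusted p = 0.010; 0.024 to 0.056 with 1 library left out). In both contigs every cold library lay far below every normal growth library, and the normal growth replicates of the latter were the closer together. Below 2 CPM, a 10233-base contig of CL1241 had 39.4, 54.4 and 107 reads in normal growth and none in cold, at least 66.9-fold lower against the floor of 3 reads for the group (edgeR adjusted p = 0.020; 0.047 to 0.070 with 1 library left out).

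Calls among the longer and the more abundant contigs were looked at after their values were seen. Of 37 tested contigs of at least 12000 bases, 6 were called (16.2%, near the 16.3% of all tested contigs), and all 6 were higher in cold. A 14233-base contig, in a cluster of 11, had 0.46, 0.60 and 0.77 TPM in normal growth and 17.5, 15.2 and 7.72 in cold (log2 fold change 4.35 ± 0.41 SE, edgeR adjusted p = 0.0091), and its cluster rose by 1.46 ± 0.37 (edgeR adjusted p = 0.023). A 12601-base contig in no cluster was much like it in size and level, with 0.54, 0.54 and 0.85 TPM against 17.9, 16.9 and 7.27 (4.33 ± 0.45, edgeR adjusted p = 0.0094). In both, the third cold library had less than the other cold libraries but several times more than any normal growth library.

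The most abundant contig that rose, of 11745 bases, collected 4712, 5250 and 6730 reads in normal growth and 19449, 18354 and 17110 in cold. Its level went from 40.4 ± 8.46 to 146 ± 20.5 TPM (SD, n = 3 each), 3.37-fold by the fit (log2 fold change 1.75 ± 0.22 SE, edgeR adjusted p = 0.012; 0.032 to 0.060 with 1 library left out). It belongs to a cluster of 3 contigs, all very long and all 3 called higher in cold, and the cluster rose from 353 ± 45.3 to 1203 ± 125 CPM (1.77 ± 0.19, edgeR adjusted p = 0.0018). Here reads moving between contigs of the cluster would not change the sum. The most abundant contig that fell, of 9592 bases, went from 39.0, 35.3 and 32.5 TPM to 17.4, 10.5 and 20.8 (log2 fold change −1.24 ± 0.32, edgeR adjusted p = 0.043), without overlap. That call was lost with any 1 library left out (adjusted p from 0.057 to 0.126) and in the cluster sum (0.057).

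Other very long contigs were at like levels in both groups. Of 232 tested with a mean of at least 10 CPM, 25 had a log2 fold change within 0.25 of 0. The smallest was that of Unigene4472_All, of 11575 bases, with 11.5, 13.0 and 13.6 TPM in normal growth and 13.4, 18.6 and 9.37 in cold (0.0051 ± 0.29 SE, edgeR adjusted p = 0.993). CL87.Contig7_All, of 8286 bases, followed, with 3.53, 2.54 and 4.17 TPM against 4.34, 2.16 and 4.54, and then CL15853.Contig9_All, of 8356 bases, with 2.48, 3.87 and 4.01 against 2.32, 3.41 and 5.18. The 3 were picked as the smallest differences, the groups overlapped in each, and a p-value that misses the threshold does not show that levels were equal.

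From 2000 bases upward, the balance of rises over falls grew with contig length over the whole assembly. Among tested contigs under 1000 bases, 8.56% were called higher in cold and 6.28% lower. The shares were 8.75% and 6.89% from 1000 to under 2000 bases, 10.4% and 6.54% from 2000 to under 4000, 14.7% and 5.02% from 4000 to under 8000, and 16.2% and 4.05% at 8000 or more. The median log2 fold change over tested contigs went through the same classes as 0.02, 0.04, 0.18, 0.57 and 0.82, with 0.12 over all tested contigs. Values next to the length limit were similar: of 334 tested contigs of 7000 to under 8000 bases, 57 were higher and 13 lower (median 0.65), and of 164 of 8000 to under 9000 bases, 26 were higher and 6 lower (median 0.91). Within the very long contigs the median did not go on rising: the 101 tested ones of at least 10000 bases had a median of 0.53, with 56.4% above 0. The balance of calls held there, with 18 higher (17.8%) and 3 lower (2.97%).

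This order by length was seen in 2 libraries on each side. The median log2 deviation of the very long contigs from their own mean was −0.35, −0.55 and −0.01 in the normal growth libraries and 0.50, 0.72 and −0.17 in the cold libraries. The third normal growth library and the third cold library thus did not follow their groups, and the median of the third cold library was the lower of the pair. Contigs under 1000 bases had medians of 0.09, −0.10, −0.01, 0.09, −0.07 and 0.08 in the same order. With 1 library left out in turn, the median log2 fold change of the very long contigs ran from 0.46 to 0.98 and kept its sign. Effective length fell short of contig length, by a term set by fragment length, by 128 ± 3.01 bases in normal growth and 131 ± 3.00 in cold (SD, n = 3 each). The part of fragment length, depth or RNA quality in the order by length was not tested.

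**Figure D4:**
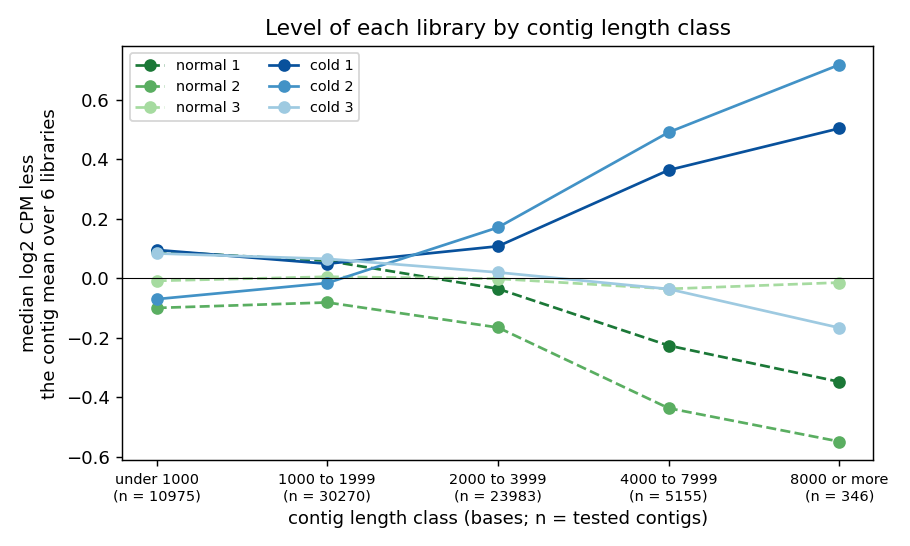
Median log2 deviation of CPM from each contig's own mean over the 6 libraries (vertical) for tested contigs in 5 length classes (horizontal), with 1 line for each library. Lines of the first and second libraries of each group spread apart with length, to −0.35 and −0.55 in normal growth and 0.50 and 0.72 in cold. The third normal growth library stays near 0, and the third cold library falls with length, from 0.08 to −0.17.

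The excess of rises was also seen beside contigs of like depth. Very long contigs had a median of 16.3 CPM among those tested, against 3.48 over all, so they were also compared with contigs of like CPM. Calls in either direction made up 16.2% from 1 to 10 CPM, against 13.5% of all contigs in that class. From 10 to 100 CPM they were 21.1%, against 21.7%, and at 100 CPM or more 26.3%, against 37.3%. From 10 CPM upward the called share was thus not above that of all contigs. From 1 to 10 CPM, 14.4% of 111 very long contigs were higher in cold and 1.80% lower, against 8.75% and 4.75% of all contigs in that class. From 10 to 100 CPM, 17.4% of 213 were higher and 3.76% lower, against 9.26% and 12.4%. At 100 CPM or more, 2 of 19 were higher (10.5%) and 3 lower (15.8%), against 17.2% and 20.1%, so the excess of rises was not seen among the few most abundant. In contigs of 4000 to under 8000 bases, 15.7% were higher and 2.59% lower from 1 to 10 CPM. From 10 to 100 CPM these shares were 12.9% and 8.39%, and at 100 CPM or more 18.3% and 12.5%. The excess from 1 to 10 CPM was thus not particular to very long contigs. The spread between replicates of very long contigs was larger than that of all contigs of like CPM: the median biological coefficient of variation was 76.2%, against 68.2%, from 1 to 10 CPM, 50.8%, against 48.6%, from 10 to 100 CPM, and 48.7%, against 38.3%, at 100 CPM or more. In contigs of 4000 to under 8000 bases it was 68.6%, 52.0% and 38.6% in the same classes. From 10 to 100 CPM the larger spread was thus not particular to very long contigs.

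Unclustered contigs, whose reads are not divided within a cluster, were also counted apart. Of 114 tested very long contigs in no cluster, 22 were called higher (19.3%) and 3 lower (2.63%), with a median log2 fold change of 1.21. Over all unclustered contigs tested these values were 11.8%, 6.15% and 0.30. Of 232 tested very long contigs in clusters, 34 were higher (14.7%) and 11 lower (4.74%), with a median of 0.63. Over all clustered contigs tested these values were 8.77%, 6.71% and 0.04. The difference between the clustered and unclustered contigs was not tested.

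When reads were summed over each cluster, unclustered contigs still rose far more often than they fell, and clusters did so less. Of 248 units with a very long contig, 238 were tested and 87 called (36.6%, against 34.0% of all units), 64 higher (26.9%, against 18.5%) and 23 lower (9.66%, against 15.5%). Among the 124 clusters, 27 were higher and 18 lower, with a median log2 fold change of 0.01, and over all clusters 17.1% were higher and 22.9% lower, with a median of −0.15. Among the 114 unclustered contigs, 37 were higher and 5 lower at this level, with a median of 1.17, against 19.3%, 11.3% and 0.28 over all unclustered contigs. Cluster sums also hold the reads of shorter contigs. Of the 34 clustered contigs that rose, 19 were in clusters that rose and 15 in clusters that were not called, 9 of these with a fold change of opposite sign. Of the 11 clustered contigs that fell, 7 were in clusters that fell and 4 in clusters that were not called.

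Within clusters, the share of reads on very long contigs was higher in cold more often than lower. The division was followed in 115 clusters with at least 50 reads in every library, which held 296 very long contigs. Over these clusters, 39.2%, 39.2% and 40.2% of reads in normal growth and 47.8%, 44.1% and 43.2% in cold were on the very long contigs (39.5% ± 0.585 and 45.0% ± 2.42, SD, n = 3 each), without overlap. The share was higher in every cold library than in every normal growth library in 32 clusters (27.8%) and lower in 15 (13.0%). The median change was 23.6 percentage points in the 32 and −13.5 in the 15. Of the 32 clusters, 9 were themselves called higher, 4 lower and 19 not called.

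The same count was made for the longest contig of any cluster, whatever its length, so that very long contigs could be set beside others. Its share of the reads did not overlap between the groups in 33.5% of all 9185 clusters, higher in cold in 21.4% and lower in 12.1%. In the 115 clusters with a very long contig it was higher in 35 (30.4%) and lower in 16 (13.9%). Where the longest contig had 4000 to under 8000 bases the shares were 29.0% and 10.3%, and where it had under 1000 bases they were 15.5% and 13.7%. The share of clusters higher in cold was thus similar in those whose longest contig had 4000 to under 8000 bases.

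**Figure D5:**
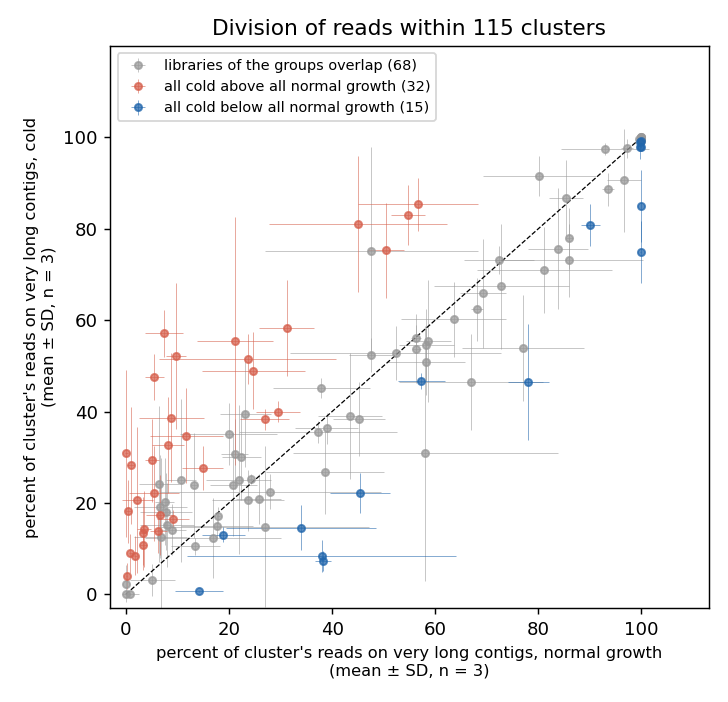
Percent of each cluster's reads on its very long contigs, mean over the 3 cold libraries (vertical) against mean over the 3 normal growth libraries (horizontal), for 115 clusters; bars are SDs of 3 libraries and colour marks the 32 clusters higher in every cold library, the 15 lower and the rest. More points without overlap lie above the diagonal of equal shares than below it.

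The widest gap was seen in CL1095, a cluster of 12 contigs with 1 very long contig. That contig held 9.46%, 3.06% and 9.51% of the cluster's reads in normal growth and 62.7%, 52.4% and 56.3% in cold. The cluster as a whole was not called (log2 fold change −0.57 ± 0.20 SE, edgeR adjusted p = 0.064). The same contig had more reads than any other of its cluster in all 6 libraries in 27 of the 115 clusters, and in 21 of these it was very long. In 81 clusters the leading contig differed between replicates of 1 group, and in 7 it changed between the groups and was the same within each: 2 of these changed to a very long contig and 2 from one.

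CL1241 held the most very long contigs, 32 of its 34, all from 8702 to 11064 bases, and its sum did not move. It collected 83.8 ± 22.7 CPM in normal growth and 81.4 ± 13.6 in cold (SD, n = 3 each; log2 fold change −0.04 ± 0.25 SE, edgeR adjusted p = 0.909). No read was assigned to 11 of the 32 in any library, 11 were tested, 2 of these were called higher and 1 lower. Reads were found on 9, 9 and 9 of the 32 in normal growth and on 13, 14 and 14 in cold. A 10503-base contig led in all 6 libraries, with 40.1%, 33.8% and 36.1% of the cluster's reads in normal growth and 24.1%, 29.0% and 29.5% in cold. In cold, a like number of reads was thus laid over more contigs, and CL1241.Contig4_All was 1 of those read in cold alone.

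CL8805, with 18 very long contigs of 21, had 1 very long contig that rose and 1 that fell; CL1241 was the only other cluster with both. Its sum went from 98.4 ± 24.5 to 150 ± 24.5 CPM and was not called (0.61 ± 0.23, edgeR adjusted p = 0.081). CL331, with 9 very long contigs of 35, had 0, 6.87 and 0 reads on them in normal growth and 595, 955 and 184 in cold, out of 2432, 1839 and 3230 reads of the cluster and 1779, 2003 and 1605. Those 9 contigs, of 8009 to 8209 bases, thus held, in normal growth and cold, 0.125% ± 0.216 and 30.9% ± 18.2 of a sum that was not called (−0.47 ± 0.23, edgeR adjusted p = 0.152), and only 1 of the 9 passed the filter for a test of its own. In a cluster of 42 contigs, the 5 very long contigs went from 26.9% ± 4.73 to 38.3% ± 2.23 of its reads, and 2 of them were called higher. The sum rose from 227 ± 26.3 to 404 ± 126 CPM (0.83 ± 0.27, edgeR adjusted p = 0.049). Of its shorter contigs, 6 were called higher and 1 lower. A very long contig of it, of 8658 bases, was lower in every cold library and not called (−0.96 ± 0.38, edgeR adjusted p = 0.128).

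Many very long contigs were on in some replicates and off in others of the same group. In normal growth 28 contigs, and in cold 45, had no read in 1 library and at least 50 in another of that group. These were 67 contigs in all, of which 54 were clustered. Shares over all contigs are not given for these counts, so they do not set very long contigs apart. Among the 83 contigs that were not tested, 46 had at least 10 reads in some library. The largest such value was for Unigene26505_All, of 8833 bases and in no cluster, with 0, 0 and 4 reads in normal growth and 1683, 171 and 0 in cold.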

How the data were processed

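Poly(A)-selected RNA of 6 whole-seedling libraries was sequenced, per the labels' protocols. The submitters' processing notes list Bowtie2 (2.2.5), RSEM (1.2.8) and DESeq2 without saying what each did, and no assembler was named in the sources used. Each table gives contig length, effective length, expected count, TPM and FPKM, per the file headers. As deposited, expected counts are RSEM estimates, which split reads between matching contigs. The TPM deposited by the authors is per contig length with a fixed sum per library. The FPKM values deposited by the authors were not used.

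Expected counts were rounded and fitted over all contigs with edgeR 4.0.16 in R 4.3.3 (filterByExpr, TMM, robust quasi-likelihood F test, Benjamini-Hochberg), leaving 70729 of 181669 contigs tested, and again on counts summed by cluster prefix (35987 units tested). The SE is the size of the log2 fold change divided by the square root of F. Alternatives used DESeq2 1.42.0, limma 3.58.1 and TPM with a pseudocount of 0.1 or 1. Fits were tested on simulated data. Folds against a group without reads used a floor of 3 reads for that group. Over a group this floor was 0.058 CPM in normal growth and 0.059 in cold. Floors cover counting error only.

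Very long contigs, lists and tests were chosen with earlier results of these data known. IDs were printed for the 2 largest changes in each direction among called contigs with no overlap and a mean CPM of 2 or more, 1 per cluster, and for uncalled contigs that were longest, most abundant or steadiest (mean CPM of 10 or more). Other called contigs are given by length. Clusters other than CL1241, Unigene26505_All and the contigs so introduced were picked after their values were seen. The labels call the libraries biological repeats; the numbering of replicates was checked and did not pair them.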

Additional observations from a re-analysis of the deposited data

How the results depend on the processing

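The 70 calls (20.2% of those tested, against 16.3% of all contigs) became 72 with DESeq2 size factors (20.8% against 16.3%), 75 with library size alone (21.7% against 16.4%), 59 with no filter (14.97% against 4.67%), 78 with limma-voom (22.5% against 20.6%) and 53 on filtered TPM (15.96% against 16.8%), so that the share was near or under that of all contigs in the latter pair. They became 125 with DESeq2 (34.0% against 23.3%; 99 higher, 26 lower; 69 shared with the 70), 42 and 38 on log2 TPM with pseudocounts of 0.1 and 1 (10.7% against 9.65% and 9.64% against 7.55%), 4 at an adjusted p under 0.01 (1.16% against 0.377%), 21 at a minimum of 10000 bases (20.8%) and 25 in unclustered contigs alone (21.9%); the cause was not tested for the first 2 kinds, and the others count fewer contigs or use a stricter threshold. Leaving out 1 library gave 0, 21 and 7 without normal growth 1, 2 and 3 in turn and 2, 24 and 28 without cold 1, 2 and 3. In these fits 131 to 170 had an unadjusted edgeR p under 0.05, and 0.176% to 4.14% of all contigs were called. The shares with no filter are not at like depth, since the filter kept 80.7% of very long contigs and 38.9% of all contigs.

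The 87 called units became 40 at an adjusted p under 0.01 (16.8% against 12.9%), 22 at 10000 bases (32.8% against 34.0%), and 48 to 102 with 1 library left out, where 16.9% to 29.9% of all units were called; 48 was without normal growth 1, and 56 without cold 1. The median log2 fold change of 0.82 became 0.53 at 10000 bases, 0.28 over units and 0.93 with library size alone, which moved the median of all contigs to 0.23. It ran from 0.46 to 0.98 with 1 library left out. The gap in detected contigs, 23.3, was 8.0 at 10000 bases and ran from 19.3 to 26.8 with 1 library left out. The 157 contigs without overlap became 47 at 10000 bases and 154 on TPM. With 1 library left out, the gap in read share (0.263 percentage points) ran from 0.184 to 0.365, that in TPM share (0.040) from 0.0279 to 0.0577, and the 47 clusters without overlap in their division of reads became 53 to 61.

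Replicate numbers were shared by the groups only in name: deviations of same-numbered libraries correlated at −0.109, −0.011 and −0.092, and no library correlated best with its own number. With the replicate number as a block, 0 contigs were called (110 at an unadjusted p under 0.05) and 53 units (22.3% against 17.6%).

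Reversed signs were seen in contigs near 0 or in cluster sums. The sum of the cluster gave −0.043 for CL1241.Contig4_All, −0.45 for the 29132-base contig and −0.45 for CL15810.Contig6_All. Under DESeq2, limma-voom and the replicate block, Unigene4472_All was at −0.053, −0.041 and −0.040 and CL87.Contig7_All at −0.024, −0.052 and −0.048. CL15853.Contig9_All was at 0.084 with library size alone. With 1 library left out, CL15810.Contig9_All ran from −1.41 to 0.088, Unigene6408_All from −0.87 to 0.17, Unigene4472_All from −0.25 to 0.17, CL87.Contig7_All from −0.24 to 0.30 and CL15853.Contig9_All from −0.43 to 0.25.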
